A study of Mus musculus with 3 samples.

Results

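The 10 genes described here encode chemokines and cytokines for which microglia are a known source in the brain. They are the CC chemokines Ccl2, Ccl12, Ccl3 and Ccl4, the CXC chemokines Cxcl2 and Cxcl16, and the cytokines Il1a, Il1b, Tnf and Csf1. They were chosen by name, as the rows of the deposited feature table that carry these symbols. All 10 were present among 32285 features, and each had at least 1 unique molecular identifier (UMI, a tag that marks 1 captured transcript) in the microglia of every library.

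Single cells of mouse medial prefrontal cortex were profiled in an estrus library and a diestrus library, both of female mice, and a library of male mice, 3 in all. Each pooled 2 mice, and 15000 cells were loaded per library after warm papain digestion and a Percoll step that removes debris. No treatment or mutation is named for any group, and the sources used here give neither strain nor age. With 1 library per group, a difference between the groups and a difference between the pools cannot be told apart, so no test was made between libraries.

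Microglia are the resident macrophages of brain tissue, and border macrophages sit around vessels and in the meninges. CC and CXC chemokines bind receptors on leukocytes and on microglia and draw those cells along a gradient. Il1a, Il1b and Tnf encode inflammatory cytokines whose genes, like those of several of these chemokines, are induced within minutes to hours of a stimulus through the transcription factors NF-kappaB and AP-1. Csf1 encodes a growth factor on which microglia depend for survival, acting through the receptor encoded by Csf1r.

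Cell classes were assigned by counting, in each cell, how many of up to 8 marker genes per class had a UMI, and none of the 10 genes was a marker. A cell joined a class when at least 3 of its markers had a UMI and that number was at least 2 above every other class. The gated cells are microglia-like, border-macrophage-like and so on, and the short class names are used for them here. The label describes the cells as neurons, but neuron-gated cells were 12.6% of the retained cells in estrus, 18.1% in diestrus and 16.5% in males, whereas microglia were 26.4%, 17.1% and 15.2%. Microglia numbered 3243, 2411 and 2362 cells, and border macrophages 72, 92 and 65. The 8 microglial markers, among them P2ry12, Tmem119 and Sall1, summed to between 9553 and 11190 UMIs per 1000000 nuclear-gene UMIs (CPM) in microglia and to between 770 and 1191 CPM in border macrophages. The 8 border macrophage markers, among them Mrc1, Pf4 and Lyve1, summed to between 28.8 and 45.7 CPM in microglia, with 0 to 2 of the 8 at 0 depending on the library, and to between 14190 and 17100 CPM in border macrophages.

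The libraries differed in depth. Retained cells numbered 12289, 14142 and 15557 in estrus, diestrus and males, and the median UMIs per microglial cell were 5314, 4483 and 3267. Between 68 and 97 cell barcodes were shared by any pair of libraries, at most 0.560% of a library. Intervals given for levels are exact Poisson 95% intervals and cover counting error only.

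Several of the 10 genes lie close to each other in the genome. In GRCm38 coordinates, Ccl3 lies at chr11:83647844-83649355 on the minus strand and Ccl4 at chr11:83662584-83664683 on the plus strand, 13228 bases apart. Ccl2 at chr11:82035571-82037453 and Ccl12 at chr11:82101845-82103400 lie 64391 bases apart on the plus strand of the same chromosome. Il1a at chr2:129299610-129309972 and Il1b at chr2:129364570-129371139 are neighbours on the minus strand with 54597 bases between them. Cxcl16 lies at chr11:70453983-70459984 (minus strand), Tnf at chr17:35199381-35202007 (minus strand), Csf1 at chr3:107741048-107760469 (minus strand) and Cxcl2 at chr5:90903871-90905938 (plus strand). The annotation places another gene on the opposite strand over part of Ccl2 (Gm17268), Il1a (Gm14023), Il1b (Il1bos) and Cxcl16 (Zmynd15). The sources used here do not say whether the counting used strand, so UMIs of these 4 genes may include transcripts of their partners. Ccl3 with Ccl4, and Ccl2 with Ccl12, are related copies, and how reads that fit both copies were counted is not given either.

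Promoter letters from RefSeq (GRCm38.p6) were matched for 7 of the 10 genes. The sequences of 5 are shown, those of Ccl12, Il1a, Il1b and Tnf for a TATA box close to the start, and that of Cxcl2 for its overlapping NF-kappaB matches and because it had the largest class difference. Each runs 5′ to 3′ on the gene's own strand and ends at the annotated gene start. For Cxcl2 that end lies 28 bases before the RefSeq start from which motif positions are counted. Capitals mark the TATA box (TATAAA) in Ccl12, Il1a, Il1b and Tnf, an AP-1 motif (TGANTCA) in Il1a, and the NF-kappaB consensus in Cxcl2.
Ccl12 promoter (chr11:82101595-82101844, plus strand): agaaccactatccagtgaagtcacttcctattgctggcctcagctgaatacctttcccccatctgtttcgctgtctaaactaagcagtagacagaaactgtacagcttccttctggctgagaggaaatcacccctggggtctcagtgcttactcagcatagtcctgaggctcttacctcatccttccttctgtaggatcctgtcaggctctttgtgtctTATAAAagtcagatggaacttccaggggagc
Il1a promoter (chr2:129309973-129310222, minus strand): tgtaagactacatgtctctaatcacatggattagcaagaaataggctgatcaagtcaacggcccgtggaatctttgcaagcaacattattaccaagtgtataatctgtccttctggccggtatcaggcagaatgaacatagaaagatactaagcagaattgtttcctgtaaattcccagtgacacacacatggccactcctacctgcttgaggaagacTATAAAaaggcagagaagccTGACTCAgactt
Il1b promoter (chr2:129371140-129371389, minus strand): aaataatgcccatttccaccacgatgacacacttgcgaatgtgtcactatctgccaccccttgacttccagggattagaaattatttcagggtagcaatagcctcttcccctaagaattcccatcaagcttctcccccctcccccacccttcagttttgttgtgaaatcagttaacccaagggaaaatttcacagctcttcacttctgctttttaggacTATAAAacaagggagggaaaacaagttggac
Tnf promoter (chr17:35202008-35202257, minus strand): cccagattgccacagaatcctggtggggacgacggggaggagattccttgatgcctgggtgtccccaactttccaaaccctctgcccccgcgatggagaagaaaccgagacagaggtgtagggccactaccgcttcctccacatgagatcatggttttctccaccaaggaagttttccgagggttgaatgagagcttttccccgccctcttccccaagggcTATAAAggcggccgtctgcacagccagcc
Cxcl2 promoter (chr5:90903649-90903870, plus strand): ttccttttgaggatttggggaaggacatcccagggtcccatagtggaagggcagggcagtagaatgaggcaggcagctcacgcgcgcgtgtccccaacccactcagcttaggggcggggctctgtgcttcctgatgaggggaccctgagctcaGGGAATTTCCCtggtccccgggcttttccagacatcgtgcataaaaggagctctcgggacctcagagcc
Searched on both strands in the 250 bases before the RefSeq start, TATAAA was found in Ccl12 (31 to 26 bases before the start), Il1a (32 to 27), Il1b (31 to 26) and Tnf (29 to 24). That motif was present in 12.4% of 32841 mouse promoters of the same length. TGANTCA was found in Il1a (12 to 6 bases before the start) and in 6.75% of all promoters. The NF-kappaB consensus was found in Csf1 (154 to 145) and Cxcl2 (97 to 88, overlapping a match on the other strand at 96 to 87) and in 7.25% of all promoters. The window before Ccl3 held none of these motifs. A match is a description of the letters and not evidence of binding.

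The transcripts also differ in AU-rich elements, short stretches in the 3′ untranslated region that are known to mark cytokine messages for rapid decay and are bound by the protein encoded by Zfp36. In the longest annotated 3′ untranslated region, the heptamer TATTTAT occurred 8 times in Tnf, 7 times in Cxcl2, 3 times in Il1b and 3 times in Il1a, with overlapping matches counted. It occurred 1 time each in Ccl3, Ccl4, Ccl12 and Csf1, and Ccl2 and Cxcl16 had none. Among 20609 genes, 28.0% had at least 1 such heptamer. Of the 2641 genes whose untranslated region was of like length to that of Tnf, 0.0757% had as many as Tnf, and the share for Cxcl2 among its 3108 genes of like length was 0.193%.

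The first comparison asked in which cell classes each gene was transcribed. A class difference was tested over the 3 libraries with edgeR's quasi-likelihood test on summed raw UMIs, with the library as a block and Benjamini-Hochberg adjustment over 12375 genes. Against border macrophages, 2 of the 10 genes were higher in microglia, where 13.8% of all genes tested were higher, and 6 of 10 were lower, where 10.3% of all genes were lower. Ccl4 and Tnf did not pass. A log2 difference here is microglia minus the other class.

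Among the CC chemokines, Ccl4 had the highest level in microglia. Its microglial level was 708 CPM in estrus, 695 CPM in diestrus and 492 CPM in males, and in border macrophages it was 379, 407 and 577 CPM. The ranges overlapped, and the log2 difference was 0.50 ± 0.31 (SE; edgeR adjusted p = 0.289; n = 3 libraries). Ccl3 encodes a ligand that attracts monocytes and other leukocytes. It stood at 387, 257 and 232 CPM in microglia and at 1004, 900.5 and 917.5 CPM in border macrophages. Every border macrophage value was above every microglial one, with a log2 difference of -1.78 ± 0.27 (edgeR adjusted p = 2.46e-05). The neighbours were thus present in opposite proportion in the 2 macrophage classes. In microglia there were 1.83, 2.70 and 2.12 Ccl4 UMIs per Ccl3 UMI in estrus, diestrus and males (95% intervals between 1.78 and 2.82), and in border macrophages 0.377, 0.452 and 0.629 (between 0.309 and 0.819). Each UMI is 1 transcript read at its 3′ end, so these ratios were not scaled to gene length.

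Ccl2 and Ccl12 encode monocyte-attracting ligands of the receptor encoded by Ccr2. Ccl2 was at 91.3, 66.6 and 35.6 CPM in microglia and at 1985, 1557 and 1130 CPM in border macrophages, a log2 difference of -4.73 ± 0.35 (edgeR adjusted p = 2.56e-09). Ccl12 was at 86.2, 112 and 156 CPM in microglia and at 799, 1732 and 1896 CPM in border macrophages, a log2 difference of -3.67 ± 0.26 (edgeR adjusted p = 1.11e-10). No border macrophage value overlapped a microglial one for either gene. Microglia, which outnumbered border macrophages, held 61.2%, 50.5% and 52.2% of all retained Ccl2 UMIs in estrus, diestrus and males, and border macrophages held 28.5%, 38.3% and 35.3%. For Ccl12 the microglial shares were 78.1%, 60.6% and 70.5%.

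The CXC chemokines differed from each other. Cxcl2, a neutrophil attractant, had 20, 73 and 10 UMIs in all microglia of estrus, diestrus and males, or 1.13, 6.56 and 1.30 CPM, and 1004, 1582 and 571 CPM in border macrophages. Its log2 difference was -8.80 ± 0.38 (edgeR adjusted p = 8.70e-13), the largest in size among the 10 genes. The 10 microglial cells with the most Cxcl2 UMIs held 100% of its microglial UMIs in estrus, 94.5% in diestrus and 100% in males, and border macrophages held 79.1%, 75.8% and 81.7% of all its UMIs. By these counts Cxcl2 transcripts lay mainly in border macrophages, which goes against its place among microglial chemokines. Cxcl16 encodes a membrane-bound chemokine that is also a scavenger receptor. It was at 39.6, 36.3 and 32.5 CPM in microglia and at 92.0, 83.1 and 140 CPM in border macrophages, a log2 difference of -1.54 ± 0.26 (edgeR adjusted p = 0.000134).

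The interleukin 1 pair divided the macrophage classes. Il1a was at 181, 256 and 227 CPM in microglia, and border macrophages had 3, 10 and 1 UMIs, or 7.89, 27.7 and 6.08 CPM. The log2 difference was 3.76 ± 0.34 (edgeR adjusted p = 1.48e-08), and it was 4.64 without the diestrus library, which holds 10 of the 14 border macrophage UMIs. Il1b, the secreted form that needs cleavage by the caspase encoded by Casp1, was at 17.2, 33.6 and 46.0 CPM in microglia and at 71.0, 371 and 103 CPM in border macrophages. All 3 border macrophage values were above the microglial ones, with a log2 difference of -2.70 ± 0.51 (edgeR adjusted p = 0.000352). Without the diestrus library it was -1.69, with an adjusted p of 0.0669. Microglia thus held 10.5, 7.63 and 4.93 Il1a UMIs per Il1b UMI (95% intervals between 4.40 and 11.9), and border macrophages 0.111, 0.0746 and 0.0588 (between 0.00141 and 0.375).

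Tnf was at 89.4, 94.3 and 116 CPM in microglia and at 229, 116 and 103 CPM in border macrophages. The ranges overlapped, and the log2 difference of -0.73 ± 0.28 had an edgeR adjusted p of 0.0594. Without the male library the difference was -1.06, with an adjusted p of 0.0147. Csf1 was at 61.0, 55.2 and 33.4 CPM in microglia, and the border macrophages of all 3 libraries held 1 Csf1 UMI. The ratio of the summed levels was 48.4 with a 95% interval from 8.68 to 1912, and the edgeR adjusted p was 0.000105.

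**Figure D1:**
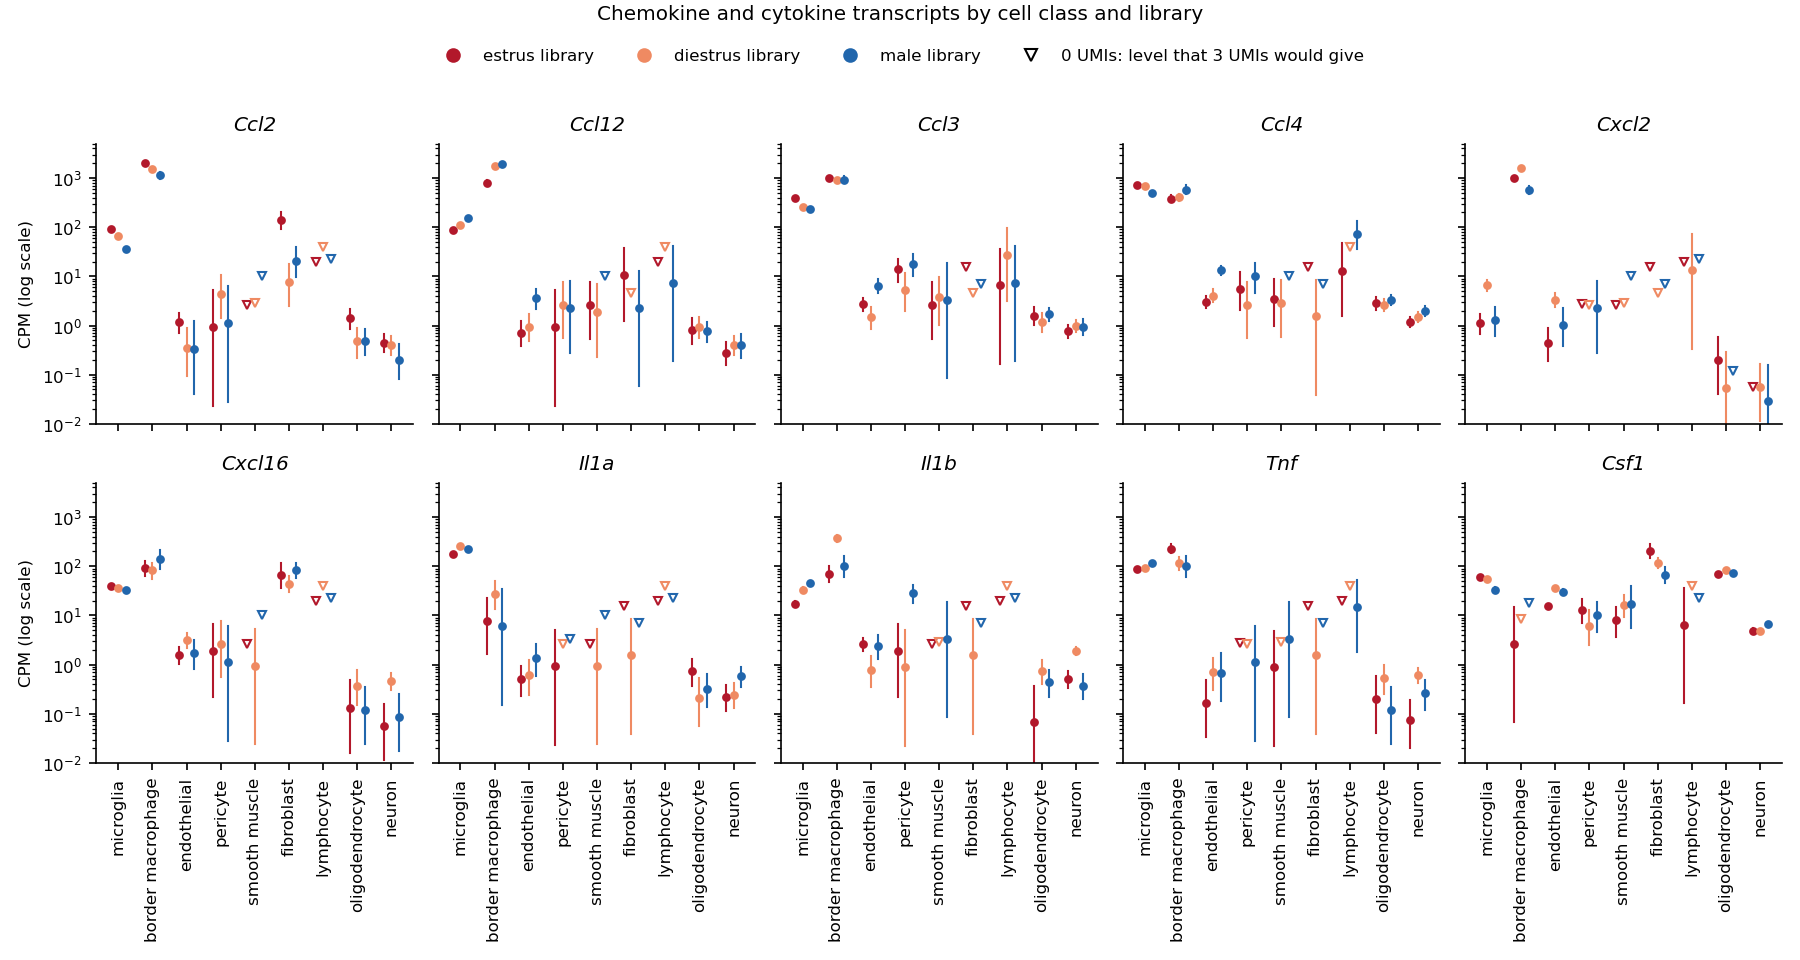
Level of each gene (CPM, log scale) in 9 cell classes, with 1 point per library and bars for the exact 95% Poisson interval, and open triangles where no UMI was counted. Ccl3, Ccl4, Ccl12 and Tnf are at 86.2 CPM or more in microglia and border macrophages, with Ccl12 at 799 CPM or more in border macrophages. Il1a is high in microglia (at least 181 CPM), and Ccl2 and Cxcl2 in border macrophages (at least 1130 and 571 CPM). Csf1 is also present in fibroblasts and oligodendrocytes.

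**Figure D2:**
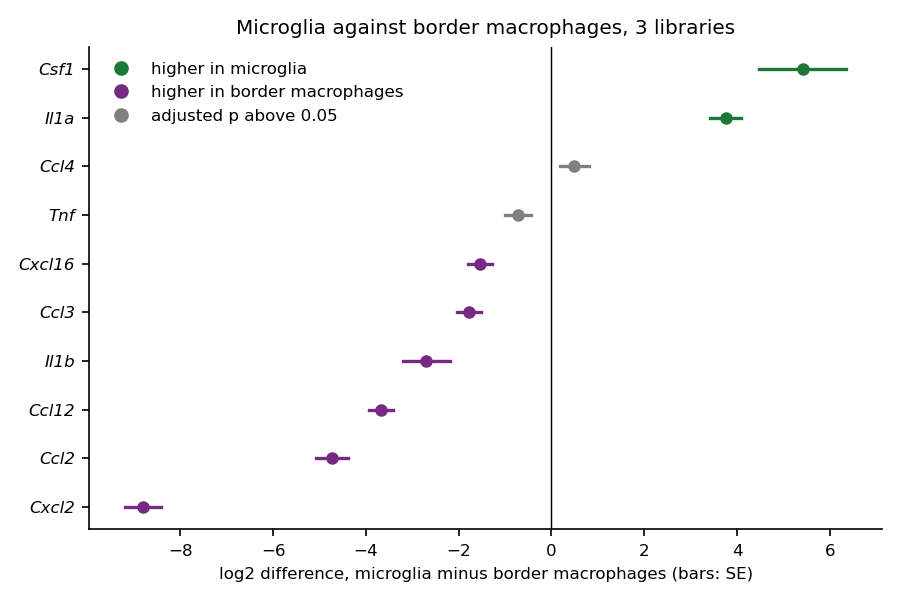
Log2 difference of microglia minus border macrophages for each gene, with bars of 1 SE from the edgeR fit over 3 libraries. Csf1 and Il1a lie above 0, Ccl4 and Tnf did not pass the test, and the other 6 genes lie below 0, down to -8.80 for Cxcl2. The Csf1 value rests on 1 border macrophage UMI.

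Vascular cells had little of most of these transcripts. In endothelial cells (2922, 2474 and 1968 cells), Ccl4 was at 2.99 to 13.3 CPM and Il1a at 0.499 to 1.36 CPM. Against endothelial cells, 9 of 10 genes were higher in microglia and none was lower, where 28.2% of all genes were higher and 31.8% lower by edgeR. Cxcl2 did not pass (log2 difference 0.89, edgeR adjusted p = 0.0769). Csf1 passed with the smallest difference, 0.89 ± 0.26 (edgeR adjusted p = 0.00460), and without the estrus library it was 0.45 with an adjusted p of 0.0619. Against pericytes, the cells that wrap capillaries, 9 of 10 were higher and none lower (26.7% and 29.1% of all genes), and Cxcl2 again did not pass (edgeR adjusted p = 0.0834; 0.0151 without the male library). The Il1b difference from pericytes was 1.95 ± 0.65 (edgeR adjusted p = 0.0146). All 25 Il1b UMIs of the male pericytes came from 1 cell, and without the male library the difference was 4.47, while without the diestrus library its adjusted p was 0.0502. Against smooth muscle cells all 10 genes were higher (27.2% of all genes; 28.3% were lower). Smooth muscle held no Ccl2 UMI, so Ccl2 was at least 59.7-fold higher in microglia, with the floor set at 3 UMIs over all libraries. Cxcl2 against smooth muscle also had no UMI to compare with and was at least 2.33-fold higher, and it did not pass without the diestrus library (adjusted p = 0.217).

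Fibroblasts of the vessel wall and meninges (28, 99 and 57 cells) were the vascular class with the most Csf1 and Cxcl16. Csf1 was at 203, 115 and 67.4 CPM in fibroblasts, above every microglial value, with a log2 difference of -1.16 ± 0.30 (edgeR adjusted p = 0.00247; 0.0537 without the diestrus library). Cxcl16 was at 67.7, 44.6 and 83.6 CPM, with a log2 difference of -0.72 ± 0.27 (edgeR adjusted p = 0.0301), and without the male library the difference was -0.28 with an adjusted p of 0.536. It also missed the threshold without the diestrus library (adjusted p = 0.0570). In all, 6 of 10 genes were higher in microglia than in fibroblasts and 2 were lower (24.9% and 24.7% of all genes). The fibroblasts held no Ccl3 UMI, so Ccl3 was at least 134-fold higher in microglia. Ccl2 did not pass (log2 difference 0.83, edgeR adjusted p = 0.121), and its fibroblast level was uneven, since all 27 estrus UMIs lay in 1 cell. Without the estrus library the Ccl2 difference was 1.97 with an adjusted p of 0.000653. Lymphocytes (33, 21 and 43 gated T and B cells) had 8 of 10 genes lower than microglia and none higher (16.4% of all genes were higher in microglia and 10.1% lower). They held no UMI of Ccl2, Il1a, Il1b or Cxcl16, so Il1a was at least 25.9-fold and Ccl2 at least 8.73-fold higher in microglia. Il1b (adjusted p = 0.141) and Cxcl2 (adjusted p = 0.958, with 1 lymphocyte UMI) did not pass against lymphocytes.

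Csf1 was the exception outside the immune and vascular classes. Its mean level over the 3 libraries was 129 ± 68.9 CPM (SD, n = 3) in fibroblasts, 76.3 ± 7.78 CPM in oligodendrocytes, 49.9 ± 14.5 CPM in microglia, 33.9 ± 2.26 CPM in astrocytes and 27.0 ± 10.5 CPM in endothelial cells. The ranges of fibroblasts and oligodendrocytes overlapped, those of oligodendrocytes and microglia did not, and those of microglia, astrocytes and endothelial cells overlapped from one to the next. Oligodendrocytes, the myelin-forming cells, held 32.1%, 45.4% and 58.0% of all Csf1 UMIs in estrus, diestrus and males, and microglia 33.3%, 17.4% and 8.06%. With every cell thinned to 1500 UMIs, a Csf1 UMI was found in 8.69%, 11.0% and 8.97% of oligodendrocytes and in 0.328%, 0.463% and 1.25% of neurons. By contrast, Ccl4 UMIs were found in 0.724%, 0.281% and 0.629% of thinned oligodendrocytes and in 0.393%, 0.278% and 0.403% of neurons, against 20.8%, 18.6% and 14.9% of microglia. Microglia held 91.2%, 89.3% and 79.3% of all Ccl4 UMIs and 94.4%, 91.5% and 90.3% of all Il1a UMIs.

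The transcripts were spread over microglia to different degrees. Before thinning, 30.2%, 23.7% and 19.0% of microglia had a Ccl4 UMI, and the highest cell held 256, 144 and 87 of them. Thinning sets the cells that are kept to the same depth and drops cells under 1500 UMIs. It kept 3188 of 3243 microglia in estrus, 2287 of 2411 in diestrus and 1935 of 2362 in males, so more were lost in males. Thinned to 1500 UMIs, Ccl3 UMIs were found in 16.8%, 11.0% and 10.2% of microglia, Il1a in 17.4%, 19.3% and 17.7%, Ccl12 in 8.50%, 9.79% and 14.6%, Ccl2 in 6.18%, 3.80% and 2.58%, and Il1b in 1.13%, 2.67% and 2.95%. The unthinned shares for Il1a were 39.3%, 34.6% and 26.6%, in the order of depth, whereas its thinned shares and its CPM were not. The 10 cells with the most Il1b UMIs held 50.3%, 32.4% and 35.5% of all microglial Il1b UMIs. For Cxcl16 the same shares were 6.12%, 8.17% and 12.8%, so its transcripts were spread over more cells. Microglia held 45.5%, 43.3% and 48.5% of all retained Il1b UMIs in estrus, diestrus and males. Ungated cells held 20%, 25% and 16%, and neuron-gated cells held 11.9% in diestrus. Neutrophils are rich in Il1b, with 11130 CPM in 4 gated cells of estrus and 10230 CPM in 5 of the male library. In those cells the 8 neutrophil markers summed to 60830 and 101300 CPM. In microglia the same markers summed to 1.24, 4.85 and 1.81 CPM in estrus, diestrus and males, with 2, 3 and 4 of the 8 at 0, beside 17.2, 33.6 and 46.0 CPM of Il1b.

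The second comparison set the libraries side by side within microglia, the contrast of estrous stage and sex that the design names. The microglia of the libraries were not made up alike. In a Leiden clustering of all retained cells that left out the 10 genes, 56.8%, 30.7% and 28.4% of the gated microglia of estrus, diestrus and males lay in cluster 5, 42.6%, 65.0% and 59.0% in cluster 6, and 0.370%, 3.11% and 11.5% in cluster 7. Genes whose symbols begin with Fos, Jun or Egr were also left out. Others that followed the 10 genes per cell, such as Cd83 and Btg2, were not excluded, so the clusters may partly follow the same pattern. The border macrophages lay in 1 cluster (98.6% to 100%). Of the 9 genes with at least 100 UMIs and a mean of 20 CPM over a pair of libraries, none was 2-fold apart (log2 ratio of 1) between estrus and diestrus, 1 was higher and 1 lower in estrus than in males, and none was past that fold between diestrus and males. Over all genes that passed the same filter, 0.594% were past the fold higher and 2.64% lower in estrus than in diestrus, 0.976% and 4.94% in estrus than in males, and 0.141% and 0.113% in diestrus than in males. The fold was computed with 1 CPM added, and the intervals are exact conditional binomial intervals of the raw ratio.

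The gene past the fold upward was Ccl2, with 1623 UMIs in estrus, 741 in diestrus and 275 in males. Its log2 ratio was 1.33 (1.17 to 1.55) between estrus and males, 0.45 (0.33 to 0.58) between estrus and diestrus, and 0.88 (0.70 to 1.11) between diestrus and males. Leaving out the 10 microglia with the most Ccl2 UMIs in each library gave 1.87 between estrus and males. In border macrophages the log2 ratio of Ccl2 between estrus and males was 0.81 (0.58 to 1.05), so the order estrus, diestrus, males was the same there. Ccl12, 64391 bases from Ccl2 in the genome, ran in the other order. Its log2 ratios in microglia were -0.38 (-0.49 to -0.27) between estrus and diestrus and -0.85 (-0.97 to -0.75) between estrus and males. Between diestrus and males the Ccl12 ratio was -0.47 (-0.59 to -0.36). There were thus 1.06, 0.593 and 0.228 Ccl2 UMIs per Ccl12 UMI in the microglia of estrus, diestrus and males (95% intervals 0.988 to 1.14, 0.541 to 0.650 and 0.200 to 0.260). In border macrophages the ratio was 2.48, 0.899 and 0.596, in the same order.

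The gene past the fold downward was Il1b, with a log2 ratio of -1.37 (-1.64 to -1.19) between estrus and males and -0.93 (-1.19 to -0.74) between estrus and diestrus. Without its 10 highest cells in each library these were -1.69 and -1.32. Il1a was also lower in estrus, by less, with -0.50 (-0.58 to -0.43) against diestrus and -0.32 (-0.41 to -0.24) against males. Ccl3 was 0.59 (0.53 to 0.65) higher in estrus than in diestrus and 0.73 (0.66 to 0.81) higher than in males on the log2 scale. Ccl4 did not differ between estrus and diestrus beyond counting error (log2 ratio 0.03, -0.01 to 0.07) and was 0.52 (0.47 to 0.58) higher in estrus than in males. Csf1 was 0.85 (0.67 to 1.07) higher in estrus than in males and 0.71 (0.51 to 0.94) higher in diestrus than in males. Tnf and Cxcl16 differed least, from -0.37 to -0.08 for Tnf and from 0.12 to 0.27 for Cxcl16 over the 3 pairs. Scaling by TMM factors instead of total UMIs moved the median of all genes up by 0.16 between estrus and diestrus and by 0.18 between estrus and males. With it the Tnf ratio between estrus and diestrus turned to 0.09 and that of Ccl4 was 0.19, and the other directions of filtered members were the same. Neuron markers, which microglia do not make, summed to 212, 531 and 705 CPM in the microglia of estrus, diestrus and males, with none of the 8 at 0, and their part in these ratios was not tested.

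Several of these ratios differed between the 2 main clusters of microglia, computed within each after the shift in make-up was seen. Il1b stayed lower in estrus in both clusters, at -1.75 (cluster 5) and -2.17 (cluster 6) against diestrus and -2.39 and -2.25 against males, with its cluster 6 levels under the filter. Ccl12 was also lower in both, at -0.75 and -0.54 against diestrus and -1.43 and -0.78 against males. Both genes thus kept their direction within clusters. Ccl2 was higher in estrus than in males in both (0.40 and 2.95, the second under the filter), but against diestrus it was at -0.29 in cluster 5 and 1.05 in cluster 6. Ccl3 and Ccl4, higher in estrus than in males over all microglia, were at -0.12 and -0.37 in cluster 5 and at 1.35 and 1.30 in cluster 6. Their higher level in estrus was therefore not shared by both clusters. Against diestrus, Ccl3 was at -0.05 and 0.71 and Ccl4 at -0.69 and 0.41. Il1a and Tnf between estrus and males were at -1.19 and -1.30 in cluster 5 and at 0.20 and 0.60 in cluster 6. Csf1 was higher in estrus than in males in both (0.27 and 0.61). The difference between the clusters was not tested.

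In border macrophages a larger share of filtered genes was past the fold between libraries, on fewer UMIs per gene. Between estrus and diestrus none of 7 members that passed the filter was past it upward and 2 were downward, where 5.04% and 9.49% of filtered genes were. These were Ccl12 (-1.11, -1.32 to -0.92) and Il1b (-2.37, -3.04 to -1.78). Between estrus and males Tnf was past it upward (1.14) and Ccl12 downward (-1.25), where 7.95% and 6.83% of genes were. Between diestrus and males Il1b (1.84) and Cxcl2 (1.47) were past it upward and none downward, where 3.69% and 0.614% of genes were. Ccl12 was thus lowest in estrus in both macrophage classes, whereas Il1b was highest in diestrus in border macrophages and in males in microglia.

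**Figure D3:**
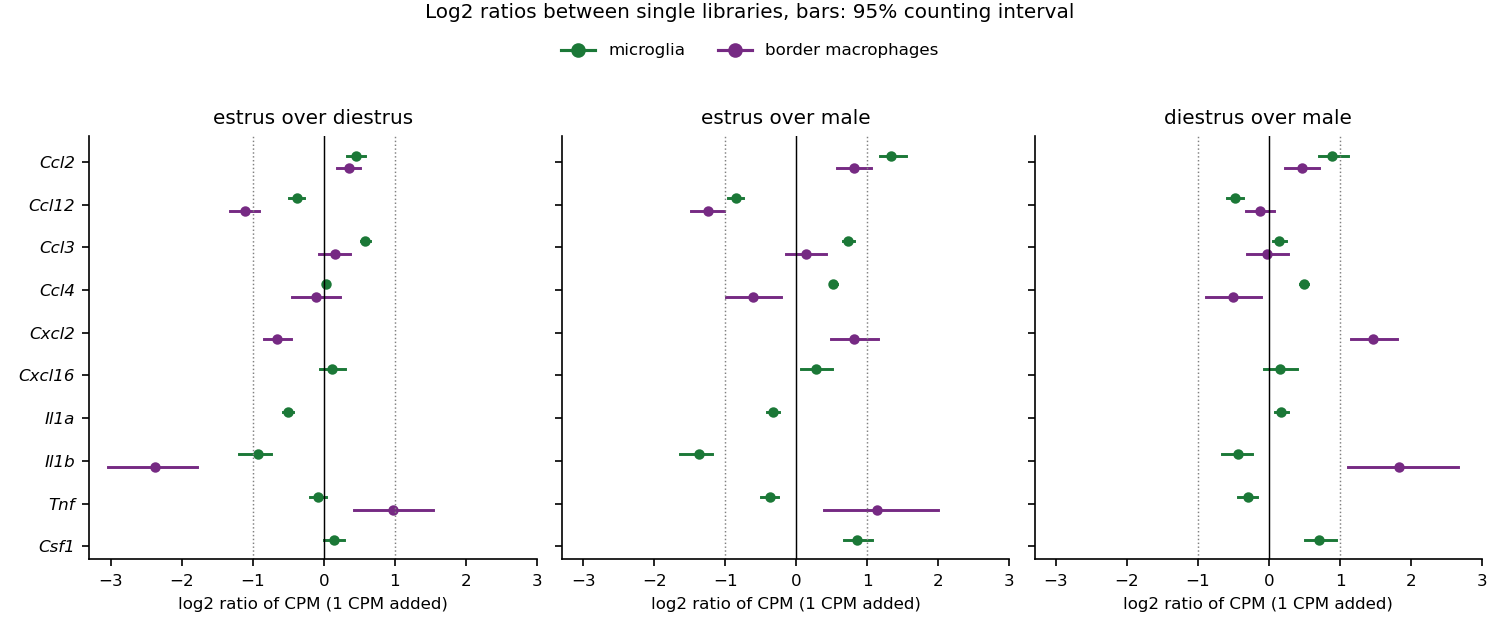
Log2 ratio of CPM between pairs of single libraries for genes that passed the filter, in microglia and border macrophages, with bars for the 95% counting interval and dotted lines at the 2-fold limits. In microglia only Ccl2 (1.33) and Il1b (-1.37) pass a limit, both between estrus and males, whereas the border macrophage bars are wider.

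The third comparison concerned single microglia, each thinned to 1500 UMIs (3188, 2287 and 1935 cells). In 46.5%, 53.1% and 53.7% of microglia none of the 10 genes had a UMI, and in 2.38%, 2.80% and 3.36% at least 4 had one (76, 64 and 65 cells). In border macrophages none was found in 8.70%, 24.4% and 17.0% of cells and at least 4 in 21.7%, 20.7% and 25.5% (69, 82 and 47 thinned cells). At this depth most border macrophages had a UMI of at least 1 member, and a count of 0 does not show that a cell lacked the transcripts.

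Ccl3 and Ccl4, the closest neighbours in the genome, had the highest correlation across microglia of all pairs of the 10 genes in each library. Both had a UMI in 279, 169 and 111 microglia, which was 2.50, 3.61 and 3.77 times the product of the single shares. Of the cells with a Ccl3 UMI, 52.2%, 67.1% and 56.4% also had a Ccl4 UMI, against 14.5%, 12.6% and 10.2% of the cells without. Pearson's r was 0.45, 0.52 and 0.48 (description only, since cells of a library share depth and free RNA). The Ccl2 and Ccl12 pair was joint in 32, 29 and 15 cells, at 1.91, 3.40 and 2.06 times the product of shares. Il1a and Il1b were joint at 1.91, 2.55 and 2.67 times, in 12, 30 and 27 cells.

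Pairs from different loci overlapped too. Il1a and Tnf were joint at 1.51, 2.22 and 2.50 times the product of shares, and Ccl4 and Tnf at 1.32, 2.49 and 2.45 times. Estrus gave the lowest ratio for each of these pairs, including Ccl3 with Ccl4. Il1b and Tnf were joint in 1, 12 and 13 cells, at 0.328, 3.10 and 3.11 times, and the estrus value rests on 1 cell. Ccl12 and Csf1 were at 0.952, 0.888 and 0.843 times the product in the 3 libraries, on 11, 8 and 7 joint cells. Cxcl16 pairs stayed between 1.05 and 2.17.

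**Figure D4:**
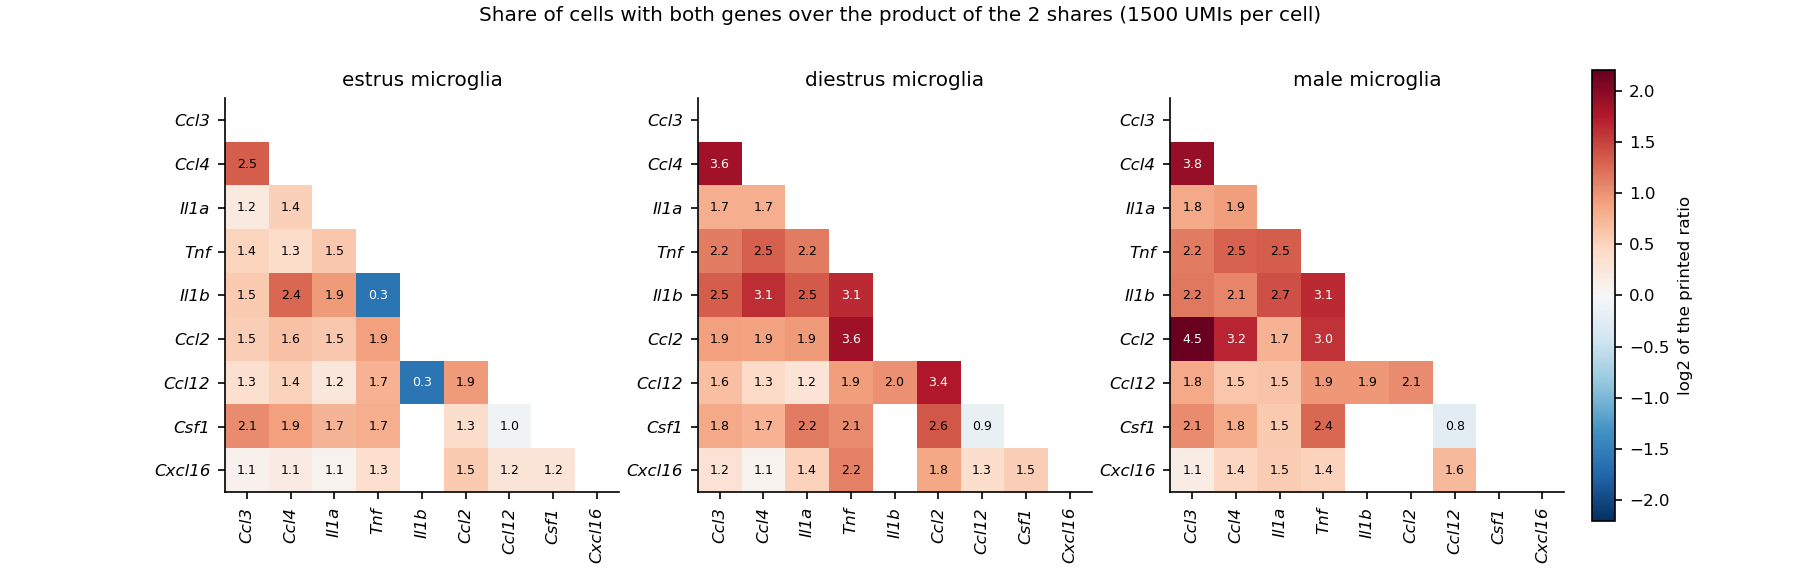
Share of thinned microglia with a UMI of both genes over the product of the 2 single shares, by library, with colour on a log2 scale and pairs with few joint cells expected left white. Ccl3 with Ccl4 is at 2.50, 3.61 and 3.77 times, and the pairs of Cxcl16 lie between 1.05 and 2.17.

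Genes whose per-cell pattern was most like that of the members were taken from 4468 genes with a UMI in at least 5% of thinned microglia of every library, ranked by Pearson's r averaged over the 3 libraries. For the sum of Ccl3 and Ccl4 they were Cd83 (mean r 0.29), Junb (0.28), Zfp36 (0.27), Btg2 (0.26), Plek (0.26), Egr1 (0.25), Jun (0.24), Nfkbia (0.24), Fos (0.22) and Mir142hg (0.21). Junb, Jun and Fos encode AP-1 subunits, Egr1 and Btg2 are immediate early genes, and Nfkbia encodes an inhibitor of NF-kappaB. For Il1a they were Cd83 (0.27), Junb (0.25) and Nfkbiz (0.25), and for Tnf Nfkbia (0.27), Junb (0.23) and Nfkbiz (0.23). Ccl2 was most like Ccl12 (0.15), Junb and Ier2, Ccl12 most like Tnf (0.12), Nfkbia and Ccl4, Il1b most like Il1a (0.13), Cd83 and Ccl4, and Csf1 most like Cd83 (0.12), Nfkbia and Ccl4. The highest r was 0.07 for Cxcl2 (Nr4a1, then Safb2 and Rnf19b) and 0.05 for Cxcl16 (Rpl6, then Rps18 and C1qb). All of these are weak correlations of sparse counts from cells that share a library.

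Immediate early genes were higher in microglia that held more of the 10 transcripts. A list of 20 immediate early genes, which encode the first transcripts made after a stimulus, summed to a mean of 6.92 UMIs per 1500 in diestrus microglia with none of the 10 genes and to 25.4 in those with at least 4. In males the values were 6.97 and 31.2. In estrus they were 18.7 and 32.7, so estrus microglia without any of the 10 transcripts were above the 15.9 and 14.1 of diestrus and male microglia with 1 member. A list of 16 NF-kappaB pathway genes went from 3.25 to 7.84 in estrus, from 2.14 to 8.89 in diestrus and from 2.02 to 9.97 in males. The list of antagonists, which shares Zfp36 with the first list and Nfkbia and Tnfaip3 with the second, went from 2.95 to 5.65, 1.25 to 5.48 and 1.24 to 6.80.

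Other lists did not follow. A list of 10 microglial homeostatic genes that were not gate markers, such as C1qa and Csf1r, summed to 56.1, 47.6 and 50.8 in cells with none of the members (estrus, diestrus, males) and to 56.7, 45.8 and 51.3 in cells with at least 4. The gate markers were lower in cells with at least 4 members, at 11.7, 12.6 and 12.98 against 14.9, 17.5 and 17.0 in cells with none. Heat shock genes stayed between 1.96 and 2.68 in every group of cells. The receptors of the members ranged between 3.30 and 4.30, and the processing genes, such as Casp1 and Adam17, between 1.01 and 1.45. Cells with at least 4 members were deeper before thinning, with median UMIs of 6250, 6108 and 4736 against 5199, 4434 and 3499 in cells with none. Border macrophage markers summed to 0.118, 0.203 and 0.031 UMIs in microglia with at least 4 members and to 0.058, 0.063 and 0.040 in those with none, and the part of depth and of other cells in the steps was not tested.

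**Figure D5:**
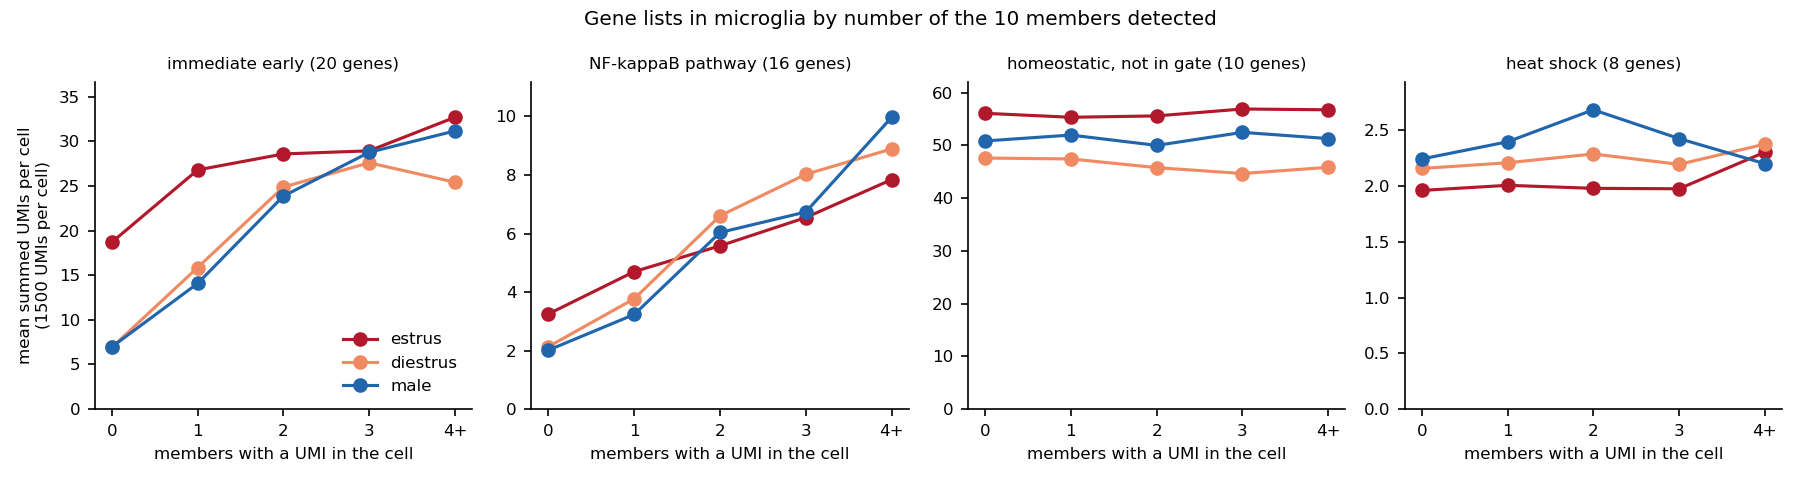
Mean summed UMIs of 4 gene lists in microglia (1500 UMIs per cell) by the number of the 10 genes with a UMI, 1 line per library. Immediate early genes go from 6.92 to 25.4 in diestrus and from 6.97 to 31.2 in males, estrus starts at 18.7, and homeostatic and heat shock genes are flat.

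Between libraries, the immediate early list had the most genes past the fold in microglia among the gene lists used. Of 19 of its 20 genes that passed the filter, 15 were higher in estrus than in diestrus, 4 past the fold, with a median log2 ratio of 0.49 against -0.06 over all genes. Against males, 17 were higher, 5 of them past the fold, and 1 gene was past it downward, with a median of 0.47 against -0.01. Of all filtered genes, 0.594% were past the fold higher and 2.64% lower in estrus than in diestrus. Against males these shares were 0.976% and 4.94%. Jund, an AP-1 subunit gene, was at 1578, 608 and 589 CPM in estrus, diestrus and males, and Btg2 at 2567, 1125 and 1043 CPM. Rgs1, a regulator of chemokine receptor signalling, was at 307, 135 and 96.6 CPM. In border macrophages Jund was at 760, 740 and 577 CPM. Among the members, Ccl2, Ccl3, Ccl4, Csf1 and Cxcl16 had their highest CPM in estrus, for Ccl4 and Cxcl16 within counting error of diestrus. Ccl12, Il1a, Il1b and Tnf had their lowest there, for Tnf within counting error of diestrus. The list was not recomputed within the clusters of microglia. Of 5 antagonist genes that passed the filter, none was past the fold between estrus and diestrus. Nfkbia (0.68), Zfp36 (0.58) and Socs3 (0.57) were higher in estrus beyond counting error, while Tnfaip3 was at 0.01 (-0.08 to 0.09). The median of the 5 was 0.57 against -0.06 over all genes. The NF-kappaB list had medians of 0.09 and 0.17 for estrus over diestrus and over males.

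Genes that receive and process these ligands were compared between the macrophage classes, where 13.8% of all genes tested were higher in microglia and 10.3% lower. Of 13 receptor genes 9 were tested against border macrophages, and 2 were higher in microglia, 2 lower, and 5 did not pass, with a median log2 difference of 0.46 against 0.16 over all genes tested. Ccr1, a receptor gene for Ccl3, was between 5.40 and 18.3 CPM in microglia and at 132, 269 and 79.0 CPM in border macrophages (-4.13 ± 0.35, edgeR adjusted p = 4.66e-08). Tnfrsf1b was higher in microglia (0.96 ± 0.26) and Tnfrsf1a lower (-1.05 ± 0.20), while Csf1r did not pass (0.46, edgeR adjusted p = 0.170). Of the 9 processing genes 3 were higher and 3 lower in microglia (median 0.19). The sheddase genes Adam10 (1.58 ± 0.23) and Adam17 (1.13 ± 0.25), whose products release Cxcl16 and Tnf from the membrane, were among those higher, with Pycard (0.97). Casp1 (-1.25 ± 0.29), Capn1 (-2.62, on 4, 6 and 2 border macrophage UMIs) and Nlrp3 (-0.69) were lower. Nlrp3 was at 61.2, 76.9 and 49.1 CPM in microglia and at 71.0, 163.5 and 54.7 CPM in border macrophages, with intervals apart in diestrus only. None of 7 antagonist genes tested passed in either direction by edgeR, and the lowest unadjusted p among them was that of Zc3h12a (0.0682). In the NF-kappaB list (median -0.26) 1 of 16 genes was higher (Icam1) and 4 were lower, among them Nfkbiz (-1.16 ± 0.26). In the immediate early list (median -0.26) 5 of 20 were higher, such as Egr3 (2.19 ± 0.47), and 8 were lower, such as Klf4 (-3.09 ± 0.57) and Fosb (-2.17 ± 0.22). The share of all called genes that were higher in microglia was 57.3% (1706 of 2978) in this contrast, 48.0% with DESeq2-style size factors and 42.7% with DESeq2. Those scalings put the median over all genes at 0.04 and -0.02 in place of 0.16, so a call on a small difference depends on them.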

How the data were processed

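The authors deposited raw, unnormalized UMI counts for each gene and barcode of 10x libraries. The submitters' processing notes name Cell Ranger 3.0.2 and mm10, while the version in the file headers is 7.0.0. The sources used here do not give the annotation, strand use or handling of intronic reads. The libraries held 14476, 18052 and 19555 barcodes and 152291602, 144738154 and 115632520 UMIs in estrus, diestrus and males. Of these, barcodes under 500 genes (970, 1986 and 2111), above 15% mitochondrial UMIs (525, 1211 and 1100) or with a Scrublet score above 0.3 in scanpy 1.11.5 (692, 713 and 787) were left out. Cells were gated on markers as described, and ungated cells (768, 2853 and 3051) entered no class. Microglia at the edge of the gate numbered 45, 69 and 144.

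The 10 genes and all gene lists and markers were chosen with earlier results of these data known. Named beside the 10 are up to 3 genes per list with the largest microglial library ratio, the 10 genes closest by correlation to the sum of Ccl3 and Ccl4 and the 3 closest to each other member, and list genes whose role is explained. Other list genes named for a class difference were chosen after their values were seen.

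Class differences were fitted with edgeR 4.0.16 (TMM scaling) over 7 classes in 3 libraries with the library as a block, because the classes of a library come from the same mice. The SE is the log2 difference over the root of the F statistic. All class contrasts share the microglial sums. The pools are the replicates. With the block, p-values measure how much class differences varied over 3 pools that also differ in stage and sex, and not the spread of levels between pools. On simulated counts with 11467 genes, the step recovered 92.9% of genes changed by a log2 of 2 and 48.4% of those changed by 1 for border macrophages, with 9 false calls. Library ratios, shares (thinned to 1500 UMIs by random draw) and per-cell co-expression were not tested. Alternatives were other scaling, DESeq2 1.42.0, no filter on low counts, no block, each library left out, another gate, doublets kept, Leiden clusters, other added CPM and other thinning depths. Leaving out the 10 highest cells and taking each main cluster of microglia apart were added after seeing the data. Coordinates came from GENCODE on GRCm38, in which 32235 of 32285 feature identifiers matched. Some list genes are not reported here.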

Additional observations from a re-analysis of the deposited data

Results flagged for a closer look

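Within the same pair of libraries, several of the genes moved one way in microglia and the other way in another class, with intervals on opposite sides of 0. These differences between classes were not tested, because each rests on 1 library per group. Csf1 was lower in estrus than in diestrus in endothelial cells (log2 ratio -1.16, -1.44 to -0.99) and in oligodendrocytes (-0.28, -0.40 to -0.17). In microglia its ratio was 0.14 (0.0004 to 0.29), with -0.41 in microglial cluster 5 and 0.09 in cluster 6. The endothelial cells of the libraries lay in different Leiden clusters, with 79.5% of those of estrus in cluster 0, 56.7% of those of diestrus in cluster 1 and 56.4% of those of males in cluster 16, and the part of this in the ratios was not tested. Between estrus and males, endothelial Csf1 was at -0.95 (-1.27 to -0.71) and microglial Csf1 at 0.85 (0.27 in microglial cluster 5 and 0.61 in cluster 6).

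In border macrophages Ccl4 was lower in estrus than in males (-0.61, -0.99 to -0.22) and lower in diestrus than in males (-0.50, -0.89 to -0.12), while the microglial ratios were 0.52 and 0.50. Border macrophage Ccl4 rests on 144, 147 and 95 UMIs, and 1 male cell held 55 of them. Border macrophage Tnf was past the 2-fold limit upward between estrus and males (1.14, 0.39 to 1.99), where 7.95% of filtered genes were, against -0.37 in microglia, and it rests on 87 and 17 UMIs. Border macrophage Il1b was past it upward between diestrus and males (1.84, 1.11 to 2.67), where 3.69% of filtered genes were, against -0.44 in microglia. Of its 134 diestrus UMIs, 32 lay in 1 cell. The microglial ratios varied between the main clusters. In clusters 5 and 6, Ccl4 was at -0.37 and 1.30 between estrus and males and at 0.32 and 0.88 between diestrus and males. Microglial Tnf between estrus and males was at -1.30 and 0.60, and microglial Il1b between diestrus and males at -0.64 and -0.08.

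Neutrophil-gated cells, which entered no class comparison, held Il1b at 11130 CPM in estrus (9239 to 13300, 121 UMIs in 4 cells) and at 10230 CPM in males (8594 to 12090, 138 UMIs in 5 cells). No neutrophil was gated in diestrus. These 9 cells held 18.0% and 18.9% of all retained Il1b UMIs of their libraries.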

How the results depend on the processing

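Of 600 refits of single class differences, 563 kept their direction and side of the threshold, 17 passed anew, 15 missed it and 5 reversed. Shares moved in 50 of 120 alternatives, co-expression ratios in 8 of 48, and single library ratios in 83 of 330 with 1 reversed. All 5 reversals of class differences were Cxcl2 against lymphocytes, where 1 lymphocyte UMI stands against 103 (-0.21): 7.48e-05 with no filter, 0.0473 with no replicate block, 5.89 with the stricter gate, 0.983 with Leiden clusters, and from -0.46 to 5.24 when 1 library was left out, the highest without the diestrus library. The count of members lower than in fibroblasts (2) was 1 with no filter, 1 with no replicate block, 0 with Leiden clusters, and 0 to 2 when 1 library was left out. Against border macrophages, 2 members stayed higher and 5 to 7 lower when 1 library was left out, a setting with fewer samples. The counts of all genes, 1706 and 1272 in the main fit, fell most without the diestrus library, to 678 and 641. They were 1301 and 1095 without the estrus library and 1207 and 1141 without the male library. Without the block they were 1340 and 981, Cxcl2 missed the threshold against smooth muscle (adjusted p = 0.141) and Cxcl16 against fibroblasts (0.0519), and the block changed no other member call. The causes of these changes were not tested. The Tnf difference from border macrophages passed with RLE factors (-0.85, adjusted p = 0.0311) and the stricter gate (-0.77, 0.0457), and Ccl4 passed with no filter (0.62, 0.0291). Csf1 and Cxcl16 missed it against fibroblasts with Leiden clusters (0.108 and 0.351), and Cxcl2 passed against endothelial cells (0.00820). With DESeq2, Csf1 against endothelial cells (0.107) and Il1b against pericytes (0.0541) missed it. Among library ratios, the count of members past the fold upward between estrus and males (1) was 2 with TMM factors and 2 without the 10 highest cells, a setting added after seeing the data. Downward between estrus and diestrus (0) the count was 1 with no filter, with Leiden clusters and without the 10 highest cells, and upward between diestrus and males (0) it was 1 with no filter, with the stricter gate and without those cells. Within single clusters of microglia, also added after seeing the data, the counts upward and downward were 0 and 2 (cluster 5) and 1 and 0 (cluster 6) between estrus and diestrus, and 0 and 4 and then 2 and 0 between estrus and males (1 and 1 over all microglia). Cxcl2 between estrus and diestrus (-1.83, on 20 and 73 UMIs and under the filter) turned to 0.19 in cluster 6. With so few UMIs the 1 CPM added weighs on that value. The joint ratio of Ccl3 and Ccl4 was 2.74 and 2.27 in estrus and 4.18 and 3.14 in diestrus with cells thinned to 1000 and 2500 UMIs, and 3.14 in males with 2500. Border macrophages, fibroblasts and lymphocytes are limited by 65 to 92, 28 to 99 and 21 to 43 cells per library.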

Other observations

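Border macrophages carried a wider set of chemokines than the 10 genes. Of 17 other chemokine and cytokine genes tested, 6 were lower in microglia, 4 higher (10.3% and 13.8% of all genes) and 7 did not pass edgeR's test, with a median log2 difference of -1.05 against 0.16 over all genes. Ccl7, a monocyte attractant, was at 2256, 2325 and 954 CPM in the border macrophages of estrus, diestrus and males and at 3.83, 6.38 and 1.43 CPM in microglia (log2 difference -9.02 ± 0.30, adjusted p = 1.42e-14). Ccl24, an eosinophil attractant, was at 681, 2599 and 1300.0 CPM in border macrophages and at 7.99, 7.91 and 7.91 CPM in microglia. Cxcl1, which shares a receptor with Cxcl2, had 16, 110 and 39 UMIs in border macrophages and 0, 1 and 0 in microglia. Ccl8, another monocyte attractant, had 25, 84 and 26 UMIs against 0, 1 and 1. The microglial levels of Ccl9 (101, 87.2 and 85.8 CPM) were close to those of Tnf, and Ccl9 was lower in microglia than in border macrophages (-1.15 ± 0.33, adjusted p = 0.0133). Cxcl10, a chemokine induced by interferon, was at 3.04, 17.5 and 21.9 CPM in microglia, lowest in estrus.

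Tgfb1 (0.86 ± 0.28, adjusted p = 0.0281) and Il18 (0.99 ± 0.35, adjusted p = 0.0423) were higher in microglia than in border macrophages. Microglial Tgfb1 was at 243, 240 and 240 CPM in estrus, diestrus and males, so it differed less between libraries than any of the 10 genes. Ltb had 209, 106 and 106 UMIs in microglia and none in border macrophages. Of 10 interferon response genes 5 were lower in microglia than in border macrophages, where 10.3% of all genes were, with Ifitm3 at -4.72 ± 0.38 and Bst2 at -2.90 ± 0.29. Of the homeostatic genes, Selplg (4.78 ± 0.24) was higher in microglia, while the complement genes C1qa, C1qb and C1qc did not pass (0.04, 0.24 and 0.05).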
